A study of Homo sapiens with 12 samples.

Results

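The transcripts described here are 10 immediate-early genes taken by name, EGR1, EGR2, EGR3, JUN, JUNB, FOS, FOSB, BTG2, IER2 and DUSP1, of which 9 have a row in a table of 10465 genes. DUSP1 was not analysed here. RNA was sequenced from neutrophil-like cells derived from HL-60, a human promyelocytic leukaemia line, after 24 h of stimulation, in 4 groups of 3 libraries. The AGEs+glucose group received 0.05 µg/mL of AGEs (advanced glycation end products, proteins modified by sugars) together with 30 mmol/L of D-glucose. The glucose group received 30 mmol/L of D-glucose, the AGEs group received 0.05 µg/mL of AGEs, and the control group received 0.05 µg/mL of BSA (bovine serum albumin). Only the control group is labelled as holding BSA. All 4 groups share the cell line, the culture medium and the length of stimulation, and the agent that turned HL-60 into neutrophils is not stated in those labels. The series set out to compare the effects of the stimuli. Whether the 3 libraries of each group were grown separately is not labelled, and p-values therefore cover only the variation among these libraries, part or all of which may be technical.

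Immediate-early genes are transcribed from factors already present in the cell, without new protein synthesis, when growth factor, stress or receptor signals activate the MAP kinase cascades. Serum response factor bound to CArG boxes and CREB bound to TGACG-type elements are well-known inducers of several of them, and their mRNAs are short-lived, so that the level long after a stimulus reflects ongoing transcription and decay. In myeloid cells EGR1 and the AP-1 subunits are known for roles in differentiation and in inflammatory gene expression.

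EGR1, BTG2 and JUN were among 6 genes below BSA in every library with added glucose, as described below. FOS, a partner of JUN in AP-1, overlapped BSA. The promoters of these 4 genes are given. They are RefSeq windows of build GRCh38.p14, from 250 bases before to 50 bases after the gene's start, read 5′ to 3′ on the gene's strand, with matches to the CArG box and to TGACG in capitals (TGACG on the other strand reads CGTCA). The EGR1 window lies at chr5:138465229-138465528 on the plus strand, that of BTG2 at chr1:203305269-203305568 on the plus strand, that of JUN at chr1:58783998-58784297 on the minus strand and that of FOS at chr14:75278578-75278877 on the plus strand.
EGR1: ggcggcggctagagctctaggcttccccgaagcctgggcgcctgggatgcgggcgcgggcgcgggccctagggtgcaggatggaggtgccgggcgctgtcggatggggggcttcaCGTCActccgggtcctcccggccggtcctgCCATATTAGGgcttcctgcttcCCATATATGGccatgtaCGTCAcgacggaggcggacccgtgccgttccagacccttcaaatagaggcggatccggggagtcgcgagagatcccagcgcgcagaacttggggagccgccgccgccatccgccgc
BTG2: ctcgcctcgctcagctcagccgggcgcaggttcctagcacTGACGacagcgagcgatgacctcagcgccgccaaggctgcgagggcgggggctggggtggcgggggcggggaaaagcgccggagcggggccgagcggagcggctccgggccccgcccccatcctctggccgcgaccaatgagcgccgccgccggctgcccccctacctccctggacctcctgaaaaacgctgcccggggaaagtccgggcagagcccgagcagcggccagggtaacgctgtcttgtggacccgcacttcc
JUN: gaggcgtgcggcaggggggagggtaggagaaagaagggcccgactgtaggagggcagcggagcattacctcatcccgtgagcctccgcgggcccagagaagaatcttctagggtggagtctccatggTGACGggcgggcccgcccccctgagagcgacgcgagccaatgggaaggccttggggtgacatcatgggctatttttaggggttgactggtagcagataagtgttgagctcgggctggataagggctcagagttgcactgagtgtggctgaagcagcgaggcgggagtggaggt
FOS: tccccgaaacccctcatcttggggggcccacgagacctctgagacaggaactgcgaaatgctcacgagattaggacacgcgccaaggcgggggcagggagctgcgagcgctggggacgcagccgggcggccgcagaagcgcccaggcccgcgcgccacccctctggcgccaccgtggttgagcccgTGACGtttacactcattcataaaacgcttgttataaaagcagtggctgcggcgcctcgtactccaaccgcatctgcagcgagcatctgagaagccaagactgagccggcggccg
The EGR1 window held 2 CArG boxes and 2 TGACG matches, and the windows of BTG2, JUN and FOS held 1 TGACG match each and no CArG box. Sites further than 250 bases before the start were not searched, so a gene without a match may hold one there. Among 35116 human promoters of the same length, 1.29% held a CArG box and 24.6% held TGACG on either strand. EGR2 has 3 annotated starts, the last of which had 1 CArG box and 2 TGACG matches, DUSP1 had 4 TGACG matches, and FOSB, JUNB and IER2 had 1 each. The AP-1 element TGANTCA, which reads the same on both strands and stood in 7.71% of all windows, was not found in the 11 windows of the 9 genes searched. The promoter of EGR3 was not searched. Only this pattern was sought, and longer AP-1-type elements, such as the TGACATCA in the JUN window, do not match it. A match describes the letters of a window and not a bound site.

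The deposited values are FPKM, fragments scaled to transcript length and library size, and the read depth behind them is unknown. FPKM sums were 220444 to 233854 per library, and Pearson's r between 2 libraries, over all genes, was 0.972 to 0.986 inside a group and 0.97 to 0.986 across groups. The first AGEs library and the third glucose library stood apart from the rest, with limma library weights of 0.181 and 0.418 against 0.797 to 1.82 in the other 10. Of 17 neutrophil markers 13 were in the table, with ITGB2 averaging 176 FPKM and CYBB 375 FPKM over the 12 libraries, but FCGR3B, CXCR1, MMP9 and LTF were not analysed here. CLC, a crystal protein of eosinophils and basophils, averaged 2362 FPKM.

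Over the 12 libraries the genes stood at very different levels, all of them on the FPKM scale, which corrects for length. BTG2 (mean 61.6 FPKM), JUNB (57.8 FPKM) and IER2 (39.2 FPKM) were above 95.6%, 95.3% and 92.4% of the rows of the table. EGR3 (5.59 FPKM), EGR1 (5.39 FPKM) and JUN (5.03 FPKM) lay near the middle of the table, above 46.7%, 45.6% and 43.4% of rows. FOS (2.14 FPKM), EGR2 (2.13 FPKM) and FOSB (1.08 FPKM) were low, above 21.1%, 20.9% and 10.1% of rows. Within each of the 4 groups the ranges of EGR3 and EGR1 overlapped, as did those of EGR1 and JUN, so their order is not resolved. FOS and EGR2 overlapped in 3 groups and were separate in the glucose group, where FOS was the higher. BTG2 was above JUNB in every library of the AGEs+glucose, glucose and BSA groups, and the ranges of the 2 genes overlapped in the AGEs group.

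**Figure D1:**
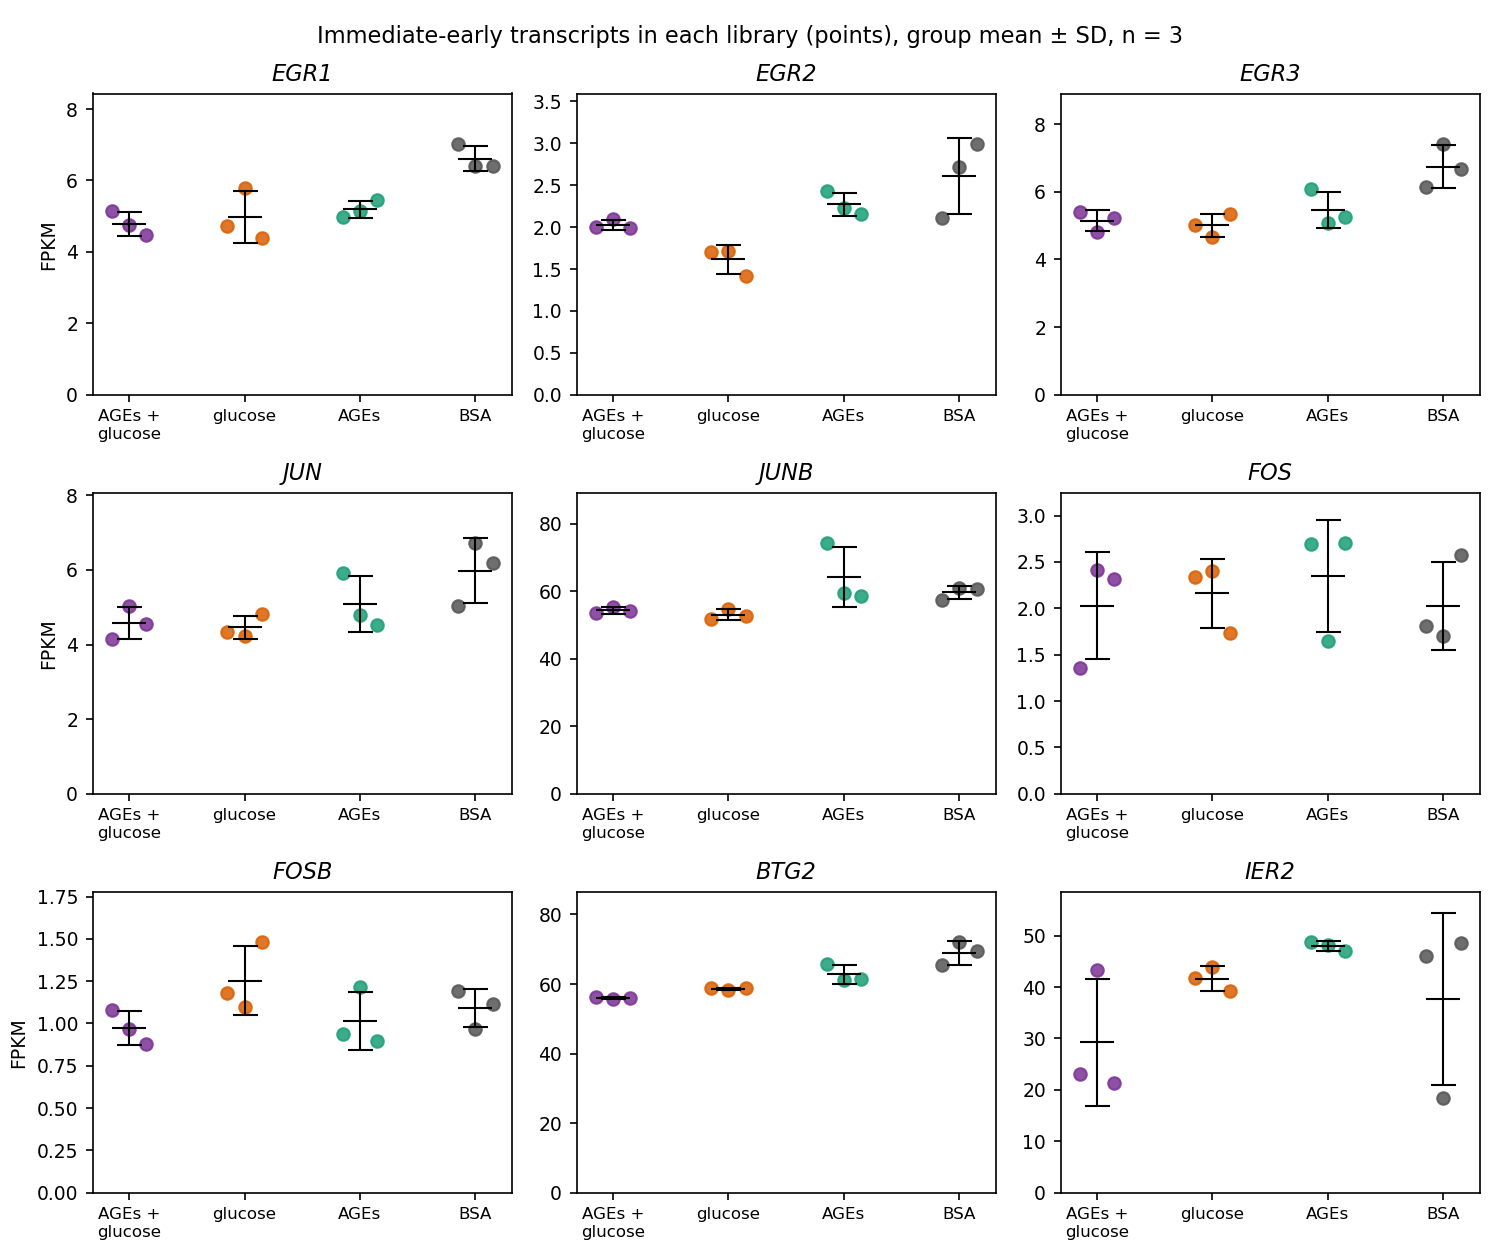
FPKM of the 9 genes in each library (points), with group mean and SD (bars, n = 3), for AGEs+glucose, glucose, AGEs and BSA cells from left to right; each panel has its own axis from 0. EGR1, EGR3 and BTG2 have their highest group mean in BSA cells, and IER2 stands near 20 FPKM in 3 libraries and at 39.2 FPKM or more in the other 9.

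EGR1, EGR2 and EGR3 are zinc-finger transcription factors that bind GC-rich sites. EGR1 had 5.15, 4.75 and 4.48 FPKM in AGEs+glucose cells, 4.74, 5.79 and 4.39 FPKM in glucose cells, 4.98, 5.15 and 5.45 FPKM in AGEs cells, and 7.03, 6.40 and 6.41 FPKM in BSA cells. Every stimulated library lay below every BSA library, and the 3 stimulated groups overlapped one another. The EGR1 mean was 0.725 times the BSA mean with AGEs+glucose, 0.752 times with glucose and 0.785 times with AGEs. On the log2(FPKM + 1) scale, which understates the change of genes near 1 FPKM, EGR1 differed from BSA by -0.40 ± 0.09 with AGEs+glucose (limma estimate ± SE, 95% interval -0.60 to -0.19, unadjusted p = 0.00117, adjusted p = 0.646). The EGR1 difference was -0.36 ± 0.09 with glucose (-0.56 to -0.16, adjusted p = 0.243) and -0.30 ± 0.09 with AGEs (-0.50 to -0.10, adjusted p = 0.958). None of the 3 passed the adjusted threshold of 0.05 over the 9751 genes tested. In bulk RNA, fewer cells expressing a gene and less of its RNA per cell cannot be told apart.

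EGR3 also had its highest values in BSA cells. It had 5.39, 4.80 and 5.24 FPKM in AGEs+glucose cells, 5.01, 4.66 and 5.34 FPKM in glucose cells, 6.07, 5.07 and 5.24 FPKM in AGEs cells, and 6.15, 7.42 and 6.66 FPKM in BSA cells. Again no stimulated library reached the lowest BSA library, although the first AGEs library (6.07 FPKM) came close to it (6.15 FPKM). The EGR3 log2 difference from BSA was -0.33 ± 0.09 with AGEs+glucose (adjusted p = 0.646), -0.36 ± 0.09 with glucose (adjusted p = 0.202) and -0.26 ± 0.09 with AGEs (adjusted p = 0.958). With library weights, the EGR3 difference between glucose and BSA was -0.38 ± 0.08 with an adjusted p of 0.0427, a call that the equal-weight fit does not make. Over all alternatives that adjusted p ran from 0.0427 to 0.55.

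EGR2 differed from EGR1 and EGR3 in that its glucose libraries overlapped no other group. It had 2.00, 2.09 and 1.98 FPKM in AGEs+glucose cells, 1.70, 1.72 and 1.42 FPKM in glucose cells, 2.43, 2.23 and 2.15 FPKM in AGEs cells, and 2.11, 2.72 and 2.99 FPKM in BSA cells. The glucose libraries were below all 9 others, the AGEs+glucose libraries were below all AGEs and all BSA libraries, and the AGEs and BSA libraries overlapped. The margin of AGEs+glucose below BSA was narrow (2.093 FPKM at most, against 2.108 FPKM at least in BSA cells). The EGR2 mean in glucose cells was 0.619 times that in BSA cells, the smallest such ratio among the 9 genes in any comparison with BSA. Its log2 difference was -0.46 ± 0.10 (95% interval -0.67 to -0.25, unadjusted p = 0.000537, adjusted p = 0.138). With AGEs+glucose the EGR2 difference from BSA was -0.25 ± 0.10 (adjusted p = 0.892), and with AGEs it was -0.13 ± 0.10 (adjusted p = 0.977).

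JUN and JUNB are the basic leucine zipper partners that form AP-1 with FOS proteins, and JUNB often restrains JUN. JUN had 4.15, 5.02 and 4.56 FPKM in AGEs+glucose cells, 4.32, 4.24 and 4.82 FPKM in glucose cells, 5.93, 4.80 and 4.53 FPKM in AGEs cells, and 5.03, 6.73 and 6.20 FPKM in BSA cells. Both glucose-containing groups lay below the BSA range, the AGEs+glucose group only just (5.024 FPKM at most, against 5.027 FPKM at least in BSA cells), and the AGEs group overlapped it. The JUN log2 difference from BSA was -0.32 ± 0.11 with AGEs+glucose (adjusted p = 0.891), -0.35 ± 0.11 with glucose (adjusted p = 0.349) and -0.20 ± 0.11 with AGEs (adjusted p = 0.977).

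JUNB had 53.5, 55.3 and 54.0 FPKM in AGEs+glucose cells, 51.8, 54.7 and 52.7 FPKM in glucose cells, 74.3, 59.3 and 58.7 FPKM in AGEs cells, and 57.5, 60.9 and 60.5 FPKM in BSA cells. All 6 libraries with added glucose were below all 6 without it, by a narrow margin (55.3 FPKM at most with added glucose and 57.5 FPKM at least without), and the 74.3 FPKM of the first AGEs library stood far above the rest. The JUNB log2 difference from BSA was -0.13 ± 0.08 with AGEs+glucose (adjusted p = 0.892) and -0.17 ± 0.08 with glucose (adjusted p = 0.562), with intervals that reach 0.05 and 0.02. With AGEs it was 0.10 ± 0.08 (adjusted p = 0.977), and -0.01 without the first AGEs library and the third glucose library, so that its sign rests on 1 library. The JUNB gene overlaps HOOK2 in the annotation, and the strand setting of the counting is unknown here, so reads of the 2 genes may be mixed. The same limit holds for EGR3, which overlaps LOC107986924.

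FOS and FOSB, the leucine zipper proteins that need a JUN partner to bind DNA, showed no such order. FOS had 1.36, 2.41 and 2.32 FPKM in AGEs+glucose cells, 2.34, 2.41 and 1.74 FPKM in glucose cells, 2.69, 1.65 and 2.71 FPKM in AGEs cells, and 1.81, 1.70 and 2.57 FPKM in BSA cells. Each group had libraries both below and above 2 FPKM, and all groups overlapped. The FOS log2 difference from BSA was -0.01 ± 0.18 with AGEs+glucose, 0.07 ± 0.18 with glucose and 0.14 ± 0.18 with AGEs, with 95% intervals of -0.40 to 0.39, -0.33 to 0.46 and -0.26 to 0.54.

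FOSB had 1.08, 0.966 and 0.876 FPKM in AGEs+glucose cells, 1.18, 1.10 and 1.48 FPKM in glucose cells, 0.937, 1.21 and 0.895 FPKM in AGEs cells, and 1.19, 0.967 and 1.11 FPKM in BSA cells. The AGEs+glucose libraries were all below the glucose libraries, and each stimulated group overlapped BSA. The FOSB log2 difference from BSA was -0.08 ± 0.09 with AGEs+glucose, 0.11 ± 0.09 with glucose and -0.06 ± 0.09 with AGEs, none with an adjusted p under 0.772.

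BTG2 is an anti-proliferative protein that recruits the CCR4-NOT deadenylase to mRNAs and is induced by p53 and by differentiation signals. It had 56.3, 55.6 and 55.9 FPKM in AGEs+glucose cells, 58.9, 58.4 and 58.8 FPKM in glucose cells, 65.9, 61.1 and 61.3 FPKM in AGEs cells, and 65.3, 72.2 and 69.5 FPKM in BSA cells. The AGEs+glucose libraries lay below the glucose libraries and these below all AGEs and BSA libraries, while AGEs and BSA overlapped through the first AGEs library. The spread within both glucose-containing groups was small (SD 0.345 and 0.289 FPKM, n = 3 each), against 2.69 FPKM in AGEs and 3.44 FPKM in BSA cells.

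The BTG2 mean was 0.811 times the BSA mean with AGEs+glucose, 0.851 times with glucose and 0.909 times with AGEs. The log2 difference of AGEs+glucose from BSA was -0.30 ± 0.05 (95% interval -0.42 to -0.18, unadjusted p = 0.000208, adjusted p = 0.646), the smallest unadjusted p of the 9 genes in the 9 comparisons. For glucose it was -0.23 ± 0.05 (-0.35 to -0.11, adjusted p = 0.199) and for AGEs -0.13 ± 0.05 (-0.26 to -0.01, adjusted p = 0.977). With library weights, BTG2 passed the threshold with AGEs+glucose (-0.29 ± 0.04, adjusted p = 0.0472) and with glucose (-0.22 ± 0.04, adjusted p = 0.0425). Over all alternatives these adjusted p-values ran from 0.0472 to 1 and from 0.0425 to 0.55.

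IER2, a nuclear protein induced by growth factors, stood at 2 levels. It had 23.0, 43.4 and 21.3 FPKM in AGEs+glucose cells, 41.7, 44.0 and 39.2 FPKM in glucose cells, 48.8, 48.2 and 47.0 FPKM in AGEs cells, and 46.1, 18.4 and 48.6 FPKM in BSA cells. AGEs+glucose replicates 1 and 3 and BSA replicate 2 held 18.4 to 23.0 FPKM and the other 9 held 39.2 to 48.8 FPKM, so the low level was not tied to 1 group. IER2 has 3 annotated transcripts in GENCODE, and EGR1, JUN and JUNB have 1 each. BTG2 has 2, EGR3 has 5, EGR2 has 6, FOS has 10 and FOSB has 13. IER2 was the only 1 of the 9 genes with 2 levels by the rule given at the end. The part of transcript assignment in the 2 levels was not tested. The log2 difference from BSA was -0.31 ± 0.34 with AGEs+glucose, 0.26 ± 0.34 with glucose and 0.46 ± 0.34 with AGEs, with 95% intervals of -1.07 to 0.44, -0.50 to 1.01 and -0.30 to 1.21.

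Only the control cells are labelled as holding BSA, so in each comparison with BSA the stimulus and a lack of BSA cannot be told apart. Set against BSA, the 9 genes divided in the same way with AGEs+glucose and with glucose. EGR1, EGR2, EGR3, JUN, JUNB and BTG2 were lower in every stimulated library than in every BSA library, and FOS, FOSB and IER2 overlapped BSA. Such a separation downward was seen in 9.14% of all genes tested for AGEs+glucose and in 9.03% for glucose. With AGEs alone 2 of the 9, EGR1 and EGR3, were separate, against 3.98% of all genes. At an unadjusted p under 0.05, 5 of the 9 were lower with AGEs+glucose (2.52% of all genes), 5 with glucose (5.34%) and 3 with AGEs (2.01%). The 9 genes were chosen with earlier results of these data known. Here and below, their counts beside the shares of all genes are therefore a description and not a test.

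By the adjusted threshold 0 of the 9 genes were called in any of the 9 comparisons by the equal-weight limma fit. That fit called 0.0103% of the 9751 genes for AGEs+glucose, 0.103% for glucose and 0.0308% for AGEs against BSA, that is 1, 10 and 3 genes. The median log2 difference of the 9 genes was -0.30 with AGEs+glucose, -0.23 with glucose and -0.13 with AGEs, and that of all genes tested was -0.01, 0.00 and 0.00. These 3 comparisons use the same 3 BSA libraries, so they are not independent of one another.

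**Figure D2:**
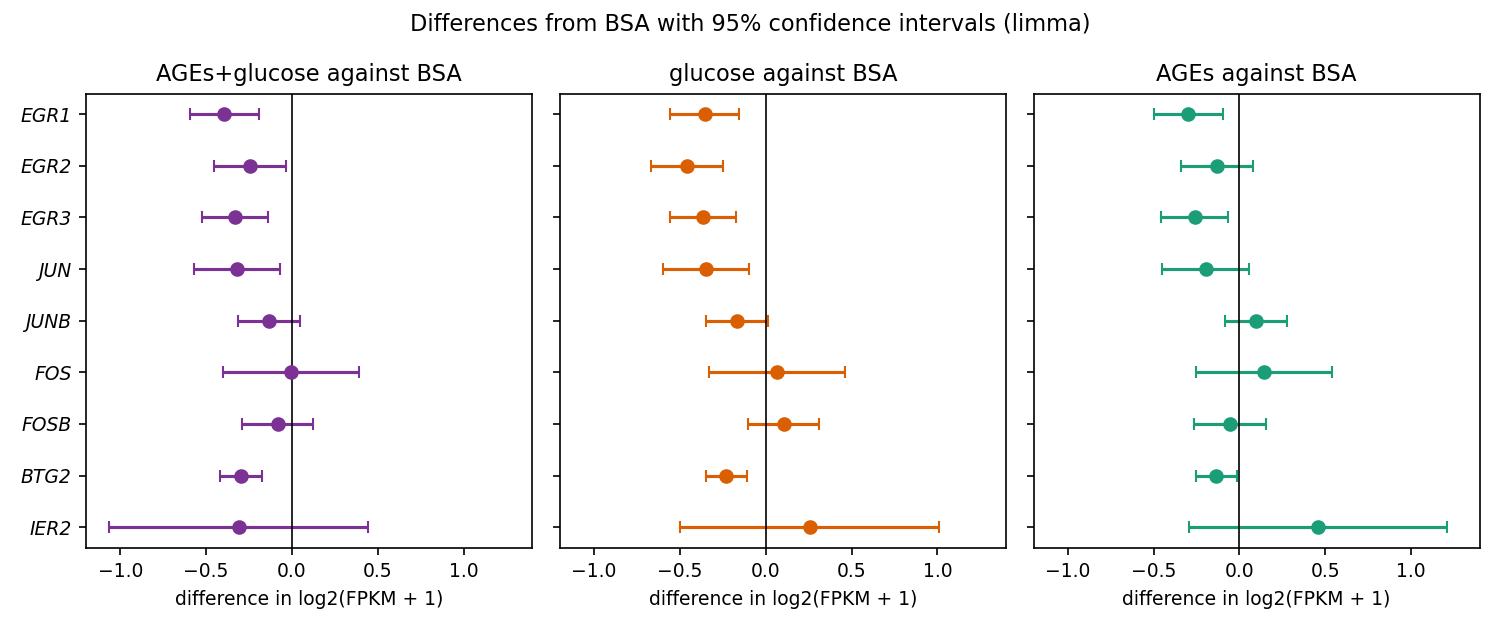
Difference from BSA in log2(FPKM + 1) for each of the 9 genes (points) with 95% confidence intervals (bars) from the limma fit, for AGEs+glucose, glucose and AGEs from left to right; the vertical line marks no difference. The intervals of EGR1, EGR3 and BTG2 lie below 0 in all 3 panels, and those of FOS, FOSB and IER2 include 0 in all 3.

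Without the first AGEs library and the third glucose library, an alternative chosen after the data were seen, the equal-weight fit again called 0 of the 9 genes. The EGR1 difference from BSA was then -0.29 ± 0.09 with glucose and -0.27 ± 0.09 with AGEs. That of EGR2 was -0.40 ± 0.10 with glucose, that of EGR3 -0.40 ± 0.08 with glucose, and that of JUN -0.40 ± 0.11 with glucose and -0.29 ± 0.11 with AGEs. BTG2 stood at -0.23 ± 0.05 with glucose and -0.17 ± 0.05 with AGEs.

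Markers of other cell types moved with some of these comparisons. The 4 measured monocyte and macrophage markers (CSF1R, CD68, LYZ and CCR2, of 10 listed) were all below BSA with glucose (median log2 difference -0.48), and their summed level was 20.4 to 21.3 FPKM in AGEs+glucose, 16.5 to 18.4 FPKM in glucose, 19.0 to 23.2 FPKM in AGEs and 21.9 to 23.7 FPKM in BSA cells. The 9 measured eosinophil and basophil markers (of 11) summed to 2712 to 2796 FPKM in AGEs+glucose, 2404 to 2640 FPKM in glucose, 2447 to 2610 FPKM in AGEs and 2201 to 2484 FPKM in BSA cells, and 8 of them were above BSA with AGEs+glucose. CLC (mean 2362 FPKM over the 12 libraries) made up most of these sums. The 13 neutrophil markers summed to 1369 to 1393 FPKM in AGEs+glucose, 1228 to 1363 FPKM in glucose, 1343 to 1384 FPKM in AGEs and 1333 to 1396 FPKM in BSA cells, sums to which S100A9 and CYBB gave the most. With glucose against BSA 8 of the 13 were below 0 and 5 above. At an unadjusted p under 0.05, 4 of the 13 were lower, against 5.34% of all genes. They were CSF3R (-0.41 ± 0.07, adjusted p = 0.0696), ITGAM, ITGB2 and NCF1. S100A8 (0.25 ± 0.11, adjusted p = 0.499) and S100A9 (0.14 ± 0.11) were among the 5 above 0. The 7 measured promyelocyte markers (of 9) summed to 137 to 140.0 FPKM in AGEs+glucose, 105 to 108 FPKM in glucose, 122 to 147 FPKM in AGEs and 115 to 127 FPKM in BSA cells. MPO (mean 111 FPKM over the 12 libraries) made up most of the promyelocyte sums. Of the 7 markers, MPO differed by -0.27 ± 0.08 (adjusted p = 0.309) and MYB by 0.46 ± 0.16 (adjusted p = 0.383) with glucose against BSA. No marker of these lists was at 0 in any library and none was called against BSA, and their part in the levels of the 9 genes was not tested.

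Adding glucose to AGEs addresses whether the combined stimulus differs from AGEs alone. All 9 genes had a log2 difference below 0 for AGEs+glucose against AGEs, as did 49.6% of all genes. Those of FOS and FOSB changed sign in fits with 1 library left out. EGR2, JUNB, BTG2 and IER2, 4 of the 9, were lower in every AGEs+glucose library, against 4.81% of all genes. BTG2 differed by -0.16 ± 0.05 (95% interval -0.28 to -0.04, adjusted p = 0.984) and JUNB by -0.23 ± 0.08 (adjusted p = 0.984). The IER2 difference of -0.77 ± 0.34 (adjusted p = 0.984) rests on the 2 low AGEs+glucose libraries. EGR1 and EGR3 overlapped, with differences of -0.10 ± 0.09 and -0.07 ± 0.09. The fit called 0.0103% of all genes in this comparison.

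Adding AGEs to glucose gave differences in both directions. BTG2 and FOSB were lower in every AGEs+glucose library than in every glucose library (7.86% of all genes), at -0.07 ± 0.05 and -0.19 ± 0.09, and EGR2 was higher in every one (7.67% of all genes), at 0.21 ± 0.10 (95% interval 0.00 to 0.42, adjusted p = 0.815). EGR1, EGR3, JUN and JUNB differed by -0.04 to 0.03, with 95% intervals that reach from -0.24 at the lowest to 0.28 at the highest. This comparison had calls for 0.0308% of all genes.

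Glucose and AGEs, each alone, were also set against each other. Again EGR2, JUNB, BTG2 and IER2 were lower in every glucose library than in every AGEs library, against 6.9% of all genes, and the fit called 0.041% of all genes. EGR2 differed by -0.32 ± 0.10 (adjusted p = 0.357), JUNB by -0.26 ± 0.08 (adjusted p = 0.404) and BTG2 by -0.09 ± 0.05 (adjusted p = 0.622). FOSB was the 1 gene of the 9 with a difference above 0, at 0.16 ± 0.09 with overlapping libraries.

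In the contrast of added glucose, averaged over AGEs, the 6 libraries with added glucose were set against the 6 without. EGR2, JUNB and BTG2 were lower in all 6 than in any of the 6 without, a separation that 0.472% of all genes showed. For EGR2 the margin was narrow (2.093 FPKM at most with added glucose and 2.108 FPKM at least without). A difference below 0 was found for 8 of the 9 genes, FOSB being the exception, and for 49.9% of all genes. Every separated gene in this contrast is by construction also separated in the 4 comparisons of a group with added glucose and a group without, which use the same libraries. BTG2 differed by -0.20 ± 0.04 (95% interval -0.28 to -0.11, unadjusted p = 0.000371, adjusted p = 0.222), EGR2 by -0.29 ± 0.07 (adjusted p = 0.284) and JUNB by -0.20 ± 0.06 (adjusted p = 0.405). EGR1, EGR3 and JUN differed by -0.23 ± 0.06, -0.22 ± 0.06 and -0.24 ± 0.08 with overlapping libraries. At an unadjusted p under 0.05 these 6 genes were lower, against 5.14% of all genes, and 0.041% of all genes were called.

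In the contrast of added AGEs, averaged over glucose, none of the 9 genes separated the 6 libraries with AGEs from the 6 without, against 0.256% of all genes that were separate downward. EGR1 differed by -0.17 ± 0.06 (95% interval -0.31 to -0.03, adjusted p = 0.766) and BTG2 by -0.10 ± 0.04 (adjusted p = 0.766), while EGR2 stood at 0.04 ± 0.07. The fit called 0.0103% of all genes in this contrast.

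The interaction sets the difference between AGEs+glucose and AGEs against that between glucose and BSA. The second difference, and with it the interaction and both averaged contrasts, may also hold a lack of BSA. The interaction term on the log2 scale was 0.26 ± 0.13 for EGR1 (adjusted p = 0.995), 0.35 ± 0.13 for EGR2 (adjusted p = 0.965) and 0.29 ± 0.12 for EGR3 (adjusted p = 0.975), point estimates that put the combined level above the sum of the single differences. For BTG2 the term was 0.07 ± 0.08 (95% interval -0.10 to 0.24), and for IER2 it was -1.02 ± 0.48 (-2.09 to 0.04). At this fit 0.0103% of all genes were called for interaction, and 2 of the 9, EGR2 and EGR3, had an unadjusted p under 0.05, against 2.41% of all genes with a term above 0.

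**Figure D3:**
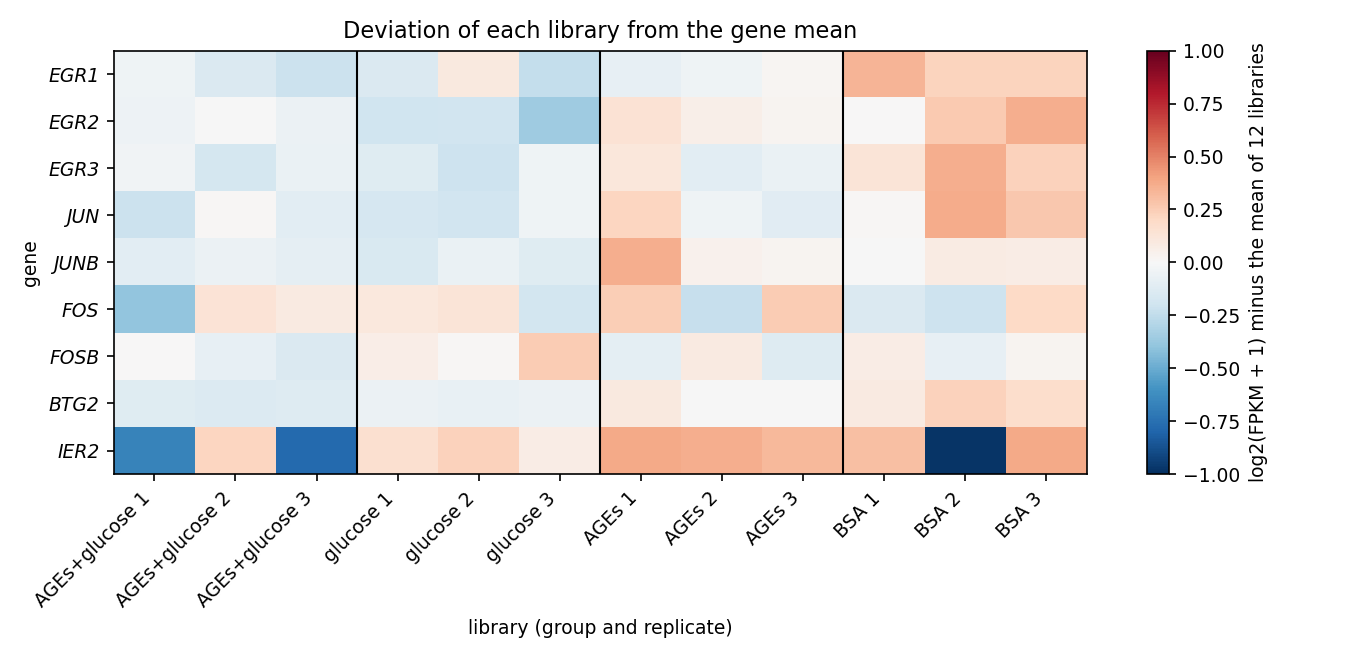
Colour shows log2(FPKM + 1) of each library minus the gene's mean over the 12 libraries, for the 9 genes (rows) in AGEs+glucose, glucose, AGEs and BSA libraries (columns, separated by lines). Red is above and blue below the mean; the BSA columns are red or near white for EGR1, EGR2, EGR3, JUN and BTG2, and the 3 low IER2 libraries are dark blue.

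The libraries of a group did not share 1 ranking. In BSA cells the first library had the highest EGR1 deviation (0.34 above the gene's mean over 12 libraries) and the lowest EGR2 deviation (0.00), and the other 2 had 0.26 and 0.36 for EGR2 and 0.22 each for EGR1. For JUN the first BSA library was at 0.01 and the others at 0.37 and 0.27. The first AGEs library had the highest AGEs value for EGR2, EGR3, JUN, JUNB, BTG2 and IER2 and the lowest for EGR1. The heat map of deviations shows these values.

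DUSP1, the MAP kinase phosphatase of the 10 genes, was not analysed here, but 12 of 16 listed MAP kinase phosphatases and feedback inhibitors were tested. In the contrast of added glucose, 10 of the 12 were below 0 and 1 of 12 was lower at an unadjusted p under 0.05, near the share over all genes (5.14%), with 0 called. That 1 was DUSP7, a cytoplasmic ERK phosphatase, with 10.6 ± 0.846 FPKM in AGEs+glucose, 10.0 ± 0.213 FPKM in glucose, 11.4 ± 1.26 FPKM in AGEs and 12.4 ± 0.116 FPKM in BSA cells (SD, n = 3). DUSP7 differed by -0.18 ± 0.06 (adjusted p = 0.436). DUSP4, a nuclear phosphatase and itself a target of ERK, differed by -0.11 ± 0.05, and DUSP16, which acts on JNK and p38, by -0.10 ± 0.06.

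Among the other genes of the pathway, 105 were tested in 7 lists, the 9 genes included, and 0 were called in any comparison. In the contrast of added glucose 79 of the 105 were below 0 with a median of -0.07, against 4863 of 9751 genes with a median of 0.00, and 17 were lower and 0 higher at an unadjusted p under 0.05, against 501 lower and 376 higher of the 9751. With glucose against BSA 82 of the 105 were below 0, with 17 lower and 1 higher, against 4918 of 9751 genes below 0, with 521 lower and 456 higher. These counts include the 9 genes and describe the lists only.

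Beside EGR1, EGR2 and EGR3, the EGR list held the co-repressors NAB1 and NAB2, which bind EGR proteins. NAB1 differed by -0.08 ± 0.08 and NAB2 by -0.09 ± 0.13 in the contrast of added glucose. Of 14 AP-1 subunits 9 were below 0, with a median of -0.04. FOSL2, a FOS relative, differed by -0.10 ± 0.06, and the small MAF proteins MAFG and MAFK by -0.09 ± 0.05 and -0.18 ± 0.10.

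Of 26 other immediate-early regulators 24 were below 0 and 8 were lower at an unadjusted p under 0.05 (5.14% of all genes), with a median of -0.11. BTG2 and IER2 are among the 26. IER3, an early-response gene that modulates survival, had 12.7 ± 0.585 FPKM in AGEs+glucose, 9.73 ± 1.14 FPKM in glucose, 13.8 ± 1.35 FPKM in AGEs and 13.7 ± 1.21 FPKM in BSA cells (SD, n = 3). The low glucose group was the 1 that stood apart, and the contrast of added glucose gave -0.28 ± 0.07 (adjusted p = 0.306). PIM1, a serine/threonine kinase, had 39.7 ± 1.57 FPKM in AGEs+glucose, 35.5 ± 1.43 FPKM in glucose, 42.5 ± 0.766 FPKM in AGEs and 41.5 ± 1.47 FPKM in BSA cells, and differed by -0.16 ± 0.04 (adjusted p = 0.338). SIK1, a salt-inducible kinase, differed by -0.22 ± 0.06 (adjusted p = 0.394).

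Of 23 kinases of the inducing cascades 16 were below 0. MAP2K3, which phosphorylates p38, had 12.4 ± 0.381 FPKM in AGEs+glucose, 12.2 ± 1.81 FPKM in glucose, 15.95 ± 2.77 FPKM in AGEs and 15.6 ± 0.451 FPKM in BSA cells, a difference of -0.33 ± 0.08 (adjusted p = 0.306). ARAF, a RAF kinase, differed by -0.18 ± 0.09. Of 18 resident promoter-binding factors 12 were below 0. SRF, which binds the CArG boxes of the EGR1 promoter, differed by -0.12 ± 0.05 (adjusted p = 0.528), the elongation kinase CDK9 by -0.10 ± 0.05 and the acetyltransferase EP300 by -0.09 ± 0.05.

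Of 7 AGE receptors and binding proteins 3 were below 0 and the median was 0.00. AGER, the receptor for AGEs, had 1.78 ± 0.0277 FPKM in AGEs+glucose, 1.15 ± 0.165 FPKM in glucose, 1.97 ± 0.261 FPKM in AGEs and 1.65 ± 0.0925 FPKM in BSA cells, a difference of -0.20 ± 0.06 in the contrast of added glucose (adjusted p = 0.43). Its glucose group was lower than each of the others, as was that of EGR2. CD36, a scavenger receptor, differed by 0.16 ± 0.10 and PRKCSH by -0.04 ± 0.05.

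**Figure D4:**
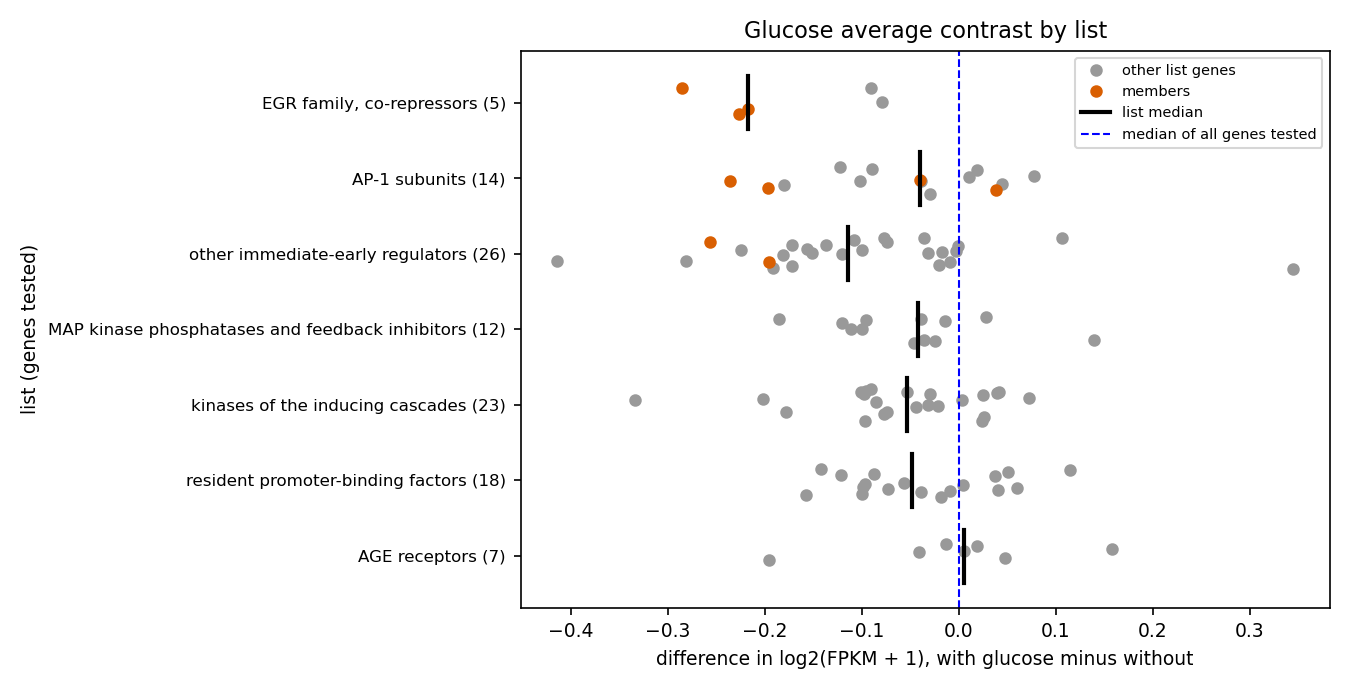
Difference in log2(FPKM + 1) between libraries with and without added glucose, averaged over AGEs, for every tested gene of 7 lists (points; the 9 genes in orange), with the median of each list (black bar) and of all genes tested (dashed line). List medians lie between -0.22 for the EGR list and 0.00 for AGE receptors.

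Over the 12 libraries the genes whose log2 values went most closely with those of EGR1, by Pearson's r and as a description across libraries that share groups, were ZNF707 (r = 0.91), SDR39U1 (0.86), PIK3IP1 (0.85), DSE (0.83) and AK4 (0.82). ZNF707 averaged 0.667 FPKM in AGEs+glucose, 0.874 FPKM in glucose, 0.897 FPKM in AGEs and 1.64 FPKM in BSA cells. For BTG2 they were EGR3 (r = 0.90), ICAM1 (0.90), ACPP (0.88), TGFBR2 (0.88) and FBXO10 (0.87). ICAM1, an adhesion molecule for leukocyte integrins, averaged 43.1 ± 1.85 FPKM in AGEs+glucose, 42.4 ± 0.966 FPKM in glucose, 47.1 ± 4.22 FPKM in AGEs and 54.1 ± 1.88 FPKM in BSA cells, and its log2 difference from BSA was -0.32 ± 0.07 with AGEs+glucose (adjusted p = 0.646) and -0.34 ± 0.07 with glucose (adjusted p = 0.138). TGFBR2, a TGF-beta receptor, averaged 48.6 FPKM in AGEs+glucose, 48.6 FPKM in glucose, 52.1 FPKM in AGEs and 54.5 FPKM in BSA cells. EGR3 is thus both one of the 9 genes and the closest to BTG2 among the 9751 tested.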

How the data were processed

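RNA of 12 libraries was measured by sequencing, and the authors deposited 1 table of gene-level FPKM, per the file headers, with 1 column per library matched to a sample by its title (0 other columns). Tools listed, without a role, in the submitters' processing notes are HISAT2 2.0.5, STAR 2.5.2b, StringTie and cutadapt, and the build listed is hg19. Annotation, strand setting and filters were not given in the sources used here. Low FPKM values showed no whole-read steps, so depth is unknown and counting error could not be given. The highest group mean of each row is at least 0.5001 FPKM.

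Values were analysed as log2(FPKM + 1) over the 9751 genes with FPKM of at least 1 in at least 3 libraries, all 12 libraries in 1 limma 3.58.1 fit of group means (R 4.3.3, statmod 1.5.0) with trend and robust moderation, and Benjamini-Hochberg adjustment within each contrast. Promoters came from RefSeq (GRCh38.p14) by symbol for 9 of the 10 genes, and the promoter of EGR3 was not analysed here. No coordinates of the deposited table were used.

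The genes and lists were chosen with earlier results of these data known. The text names all 10 genes, up to 3 further genes per list with the smallest p in the contrast of added glucose, and the 5 genes most like EGR1 and BTG2; 1 gene this rule names is not reported here. The fit was run on simulated data with changes larger than most differences described here, so that run does not show whether differences of this size would be called. Alternatives were library weights, median-ratio scaling, quantile normalization, a pseudocount of 0.1, a mean FPKM of 5 or more, no filter, no trend or robust step, only the groups compared, a replicate block, each library left out, and, added after the data were seen, both low-weight libraries left out. Residuals of the libraries showed no pairing by replicate number, which does not exclude it.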

Additional observations from a re-analysis of the deposited data

How the results depend on the processing

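Of 81 log2 differences (9 genes in 9 comparisons), 739 of 755 values under 10 alternatives kept direction and side of the threshold, as did 939 of 972 with 1 library left out. No gene of the 9 was called except with library weights, which called 1 with AGEs+glucose against BSA (BTG2) and 2 with glucose against BSA (BTG2 and EGR3). Leaving out each library in turn called 0 of the 9 in each comparison, and 2 to 6 genes of all for AGEs against BSA, 3 to 16 for glucose against BSA, 1 to 3 for AGEs+glucose against BSA, 1 to 4 for AGEs+glucose against AGEs, 0 to 7 for AGEs+glucose against glucose, 4 to 8 for glucose against AGEs, 2 to 10 for the contrast of added glucose, 0 to 5 for the contrast of added AGEs and 0 to 4 for interaction. Over all genes, calls numbered 10 with library weights and 3 with equal weights for AGEs against BSA, 127 and 10 for glucose against BSA, 5 and 1 for AGEs+glucose against BSA, 2 and 1 for AGEs+glucose against AGEs, 27 and 3 for AGEs+glucose against glucose, 15 and 4 for glucose against AGEs, 16 and 4 for the contrast of added glucose, 10 and 1 for the contrast of added AGEs, and 14 and 1 for interaction. Without both low-weight libraries there were 9 for AGEs against BSA, 73 for glucose against BSA, 4 for AGEs+glucose against BSA, 6 for AGEs+glucose against AGEs, 10 for AGEs+glucose against glucose, 0 for the contrast of added AGEs and 7 for interaction. Fitting only the groups compared gave 7 for AGEs against BSA, 5 for glucose against BSA, 0 for AGEs+glucose against BSA and 5 for AGEs+glucose against glucose. With no filter the counts were 2 for AGEs+glucose against AGEs, 2 for the contrast of added AGEs and 3 for interaction, and with a mean FPKM of at least 5 they were 3 for the contrast of added AGEs and 2 for interaction. Median-ratio scaling gave 2 for interaction, quantile normalization 7 for the contrast of added glucose, and no trend and no robust step 0 for the contrast of added AGEs. The cause of these shifts was not tested.

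The replicate block left 2 calls for glucose against BSA, 0 for AGEs+glucose against glucose, 2 for the contrast of added glucose and 0 for the contrast of added AGEs, and called 0 of the 9 genes. Residuals of same-numbered libraries correlated at -0.214 to 0.128, with 2 of 18 pairs over 0.1, and 3 of 12 libraries matched their own number best. Pairing by number was not seen in these residuals, which cannot exclude it.

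Some log2 differences changed sign, mostly near 0. With library weights FOS stood at 0.018 for AGEs+glucose against BSA, 0.025 for glucose against AGEs, 0.022 for the contrast of added glucose and -0.0036 for the contrast of added AGEs, and JUNB at 0.0073 for interaction. Quantile normalization gave 0.00065 for FOS with AGEs+glucose against BSA. Without both low-weight libraries FOS stood at 0.11 for glucose against AGEs, 0.049 for the contrast of added glucose and -0.056 for the contrast of added AGEs, FOSB at -0.011 for the contrast of added glucose, EGR2 at -0.0048 for the contrast of added AGEs, and JUNB at -0.014 for AGEs against BSA and 0.042 for interaction. With 1 library left out, signs turned for FOS in 7 comparisons (-0.10 to 0.16 for AGEs+glucose and -0.0097 to 0.19 for glucose against BSA, -0.31 to 0.023 for AGEs+glucose and -0.23 to 0.027 for glucose against AGEs, -0.17 to 0.097 for AGEs+glucose against glucose, -0.12 to 0.045 for added glucose and -0.017 to 0.12 for added AGEs). They turned for AGEs+glucose against glucose in EGR1 (-0.11 to 0.057), EGR3 (-0.0095 to 0.073) and JUN (-0.027 to 0.086), for glucose against AGEs in EGR1 (-0.15 to 0.012) and for AGEs+glucose against AGEs in FOSB (-0.071 to 0.042). They also turned for JUNB with AGEs against BSA (-0.014 to 0.15) and for interaction (-0.12 to 0.047), for IER2 with glucose against BSA (-0.18 to 0.49) and added AGEs (-0.27 to 0.064), and for EGR2 with added AGEs (-0.012 to 0.078).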

Other observations

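IER2 was 1 of 372 genes (3.81% of 9751) whose 12 values fell into 2 sets, each of at least 2 libraries, with a gap of at least 1.5 times between them, a rule chosen after the IER2 values were seen. Among the 105 list genes 8 did so, and 1 of the 9 immediate-early genes. MAPK14, the p38 alpha kinase, stood at 16.9 to 17.7 FPKM in 4 libraries (AGEs+glucose replicates 2 and 3 and AGEs replicates 1 and 2) and at 5.88 to 7.42 FPKM in the other 8, so 2 of 3 libraries of both groups with AGEs, and none of the glucose and BSA groups, were high. MAFF, a small MAF protein, stood at 1.95 to 2.75 FPKM in 6 libraries, among them all AGEs+glucose libraries, and at 5.69 to 6.65 FPKM in the other 6, among them all glucose libraries. ID2, an inhibitor of basic helix-loop-helix factors, stood at 9.25 and 9.26 FPKM in BSA replicates 2 and 3 and at 16.7 to 23.4 FPKM in the other 10. ZFP36, which promotes decay of AU-rich mRNAs, stood at 5.997 to 10.05 FPKM in glucose replicates 2 and 3 and BSA replicate 3 and at 16.5 to 22.4 FPKM in the other 9. ELK3, SPRY1 and BATF2 were the remaining list genes of this kind. None of the 8 list genes was called in any of the 9 comparisons.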
